A study of Mus musculus with 6 samples.

Results

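The genes described here encode enzymes that add or remove methyl groups on histones and DNA, enzymes that remove acetyl groups, and the subunits and readers that work with them. They were taken from the deposited expression table by gene symbol alone. The families Kmt, Kdm, Setd, Prdm, Hdac, Sirt, Dnmt, Tet and Cbx entered, together with Ezh1, Ezh2, Eed, Suz12, Rbbp4, Rbbp7 and Jarid2. Of 17933 genes in the table, 87 matched. The symbol rule itself uses no expression value, but it was chosen with earlier results of these data known. The samples were whole kidneys of wild-type male C57BL/6 mice aged 6 to 8 weeks. The kidney stone group received 120 mg/kg glyoxylic acid, a precursor of oxalate, into the peritoneum each day for 12 days, and the control group received saline of the same volume. Each group had 3 samples, and nothing in the labels ties each of them to a separate mouse, so each p-value reflects the spread among the 3 samples of a group, and that spread may be technical. The title of the series names EZH2, and the comparison asked how Ezh2 stood among the other chromatin enzymes in stone and control kidneys.

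Polycomb repressive complex 2 (PRC2) places the repressive Polycomb methyl mark on histone H3 through its catalytic subunit EZH2 or EZH1, with EED and SUZ12 as obligate partners, and the demethylases KDM6A and KDM6B remove it. EZH2 is typical of dividing cells and EZH1 of resting tissue. KMT2 and SETD1 enzymes place the mark of active promoters, histone deacetylases and sirtuins remove acetyl groups, DNMT enzymes methylate DNA and TET enzymes oxidise that methyl group. A symbol pattern also takes in proteins with other roles: SETD3 modifies actin, SIRT3, SIRT4 and SIRT5 work in mitochondria, and many PRDM proteins are DNA-binding factors.

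Expression is given as FPKM, a fragment count scaled to gene length and library size, which allows levels to be compared between genes. FPKM sums ran from 711768 to 758514 in control samples and from 609705 to 613885 in stone samples. The proximal tubule gene Kap alone held 19.3 to 23.2% of the sum in controls and 1.18 to 2.26% in stone samples, so the choice of scaling moved every gene. The median tested gene had a log2 fold change of 0.21 in the deposited values. Scaling by the median of gene ratios moved that median by -0.20, and equal FPKM sums moved it by 0.24. For this reason the counts of calls in each gene list below are given under 3 scalings: the deposited one, median-of-ratios and equal FPKM sums. A defining marker of kidney was present. Umod, of the thick limb, averaged 1670 FPKM in control and 1299 FPKM in stone samples.

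Most of these genes changed little, and most changes pointed the way the whole transcriptome moved. Of the 87 genes, 78 averaged 1 FPKM or more across the 6 samples and were tested, 63 with a log2 fold change above 0 and 15 below 0. By limma on log2(FPKM + 1), with an adjusted p under 0.05 counted as a call, 40 of the 78 were higher in stone kidneys, 51.3% against 43.5% of all 12319 tested genes. The 2 lower calls, Sirt3 and Sirt4, made 2.56% of the 78 against 13.9% of all tested genes, and by unadjusted p the number below 0.05 in that direction was 3. After median-of-ratios scaling 17 were higher and 12 lower, or 21.8% and 15.4%, against 23.9% and 24.9% of all tested genes. With equal FPKM sums 60 were higher and 1 lower, or 76.9% and 1.28%, against 68.5% and 6.47%. Their median log2 fold change was 0.26 as deposited and 0.03 after median-of-ratios scaling, beside 0.21 and 0.01 for all tested genes. The share of higher calls thus stayed near the share in the whole table, and the share of lower calls was below it under each of these scalings. The shares of all tested genes given here are also the background for each gene list and marker list below.

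**Figure D1:**
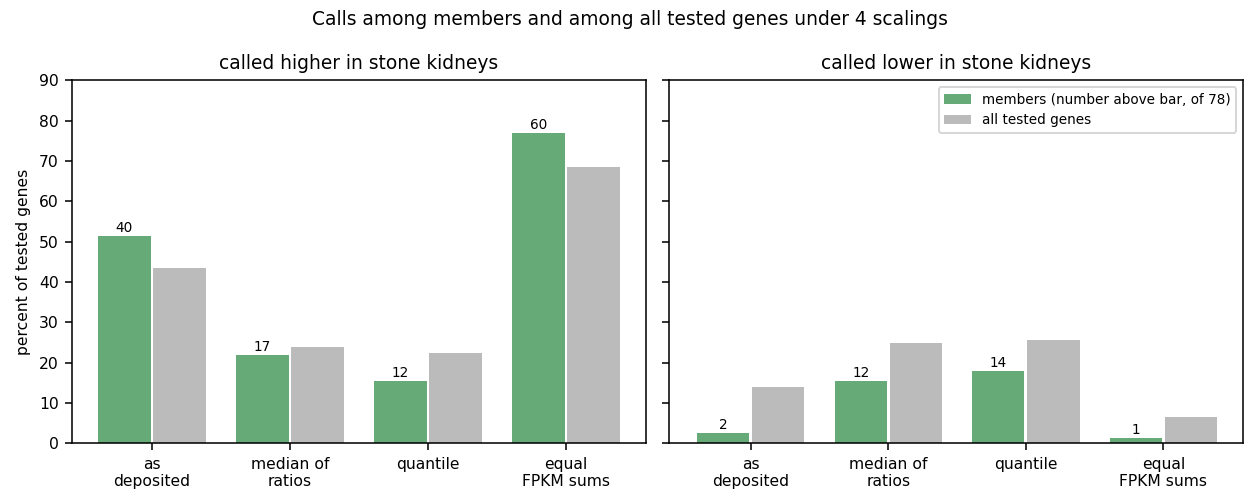
Percent of genes called higher (left) and lower (right) in stone kidneys under 4 scalings. Green bars are the 78 tested chromatin genes with their number above the bar, and grey bars are all 12319 tested genes. The green bars run from 12 to 60 higher calls and follow the grey ones from scaling to scaling.

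A smaller set kept its call under the deposited and the median-of-ratios scaling. For higher calls it is the same set as after median-of-ratios scaling, and for lower calls the same as in the deposited values. Agreement thus adds no support beyond the stricter scaling in each direction. Under the deposited and the median-of-ratios scaling alike, 17 genes were higher, 21.8% against 23.9% of all tested genes, and Sirt3 and Sirt4 were lower, 2.56% against 13.9%. The 17 were Hdac7, Ezh2, Setd5, Kmt2a, Dnmt1, Setd7, Kmt2e, Prdm15, Setd4, Prdm2, Dnmt3a, Cbx5, Kdm4a, Cbx3, Kmt2b, Rbbp7 and Kdm5c. Of these, Setd4 reached the level for testing only through its stone values, so it had to be higher in stone kidneys to be counted. With equal FPKM sums and quantile normalization added, 12 of them and Sirt3 passed under all 4 scalings. Hdac7 had the largest change of the 78, and Ezh2 followed it. Ranked by log2 fold change among all tested genes, Hdac7 stood at percentile 94.4 and Ezh2 at percentile 90.1, and the other 76 stood lower. The values of the stone group lay wholly above those of the control group for 45 of the 78 genes, against 49.8% of all tested genes, and wholly below for 6, against 16.5%. Values overlapped for the remaining 27.

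**Figure D2:**
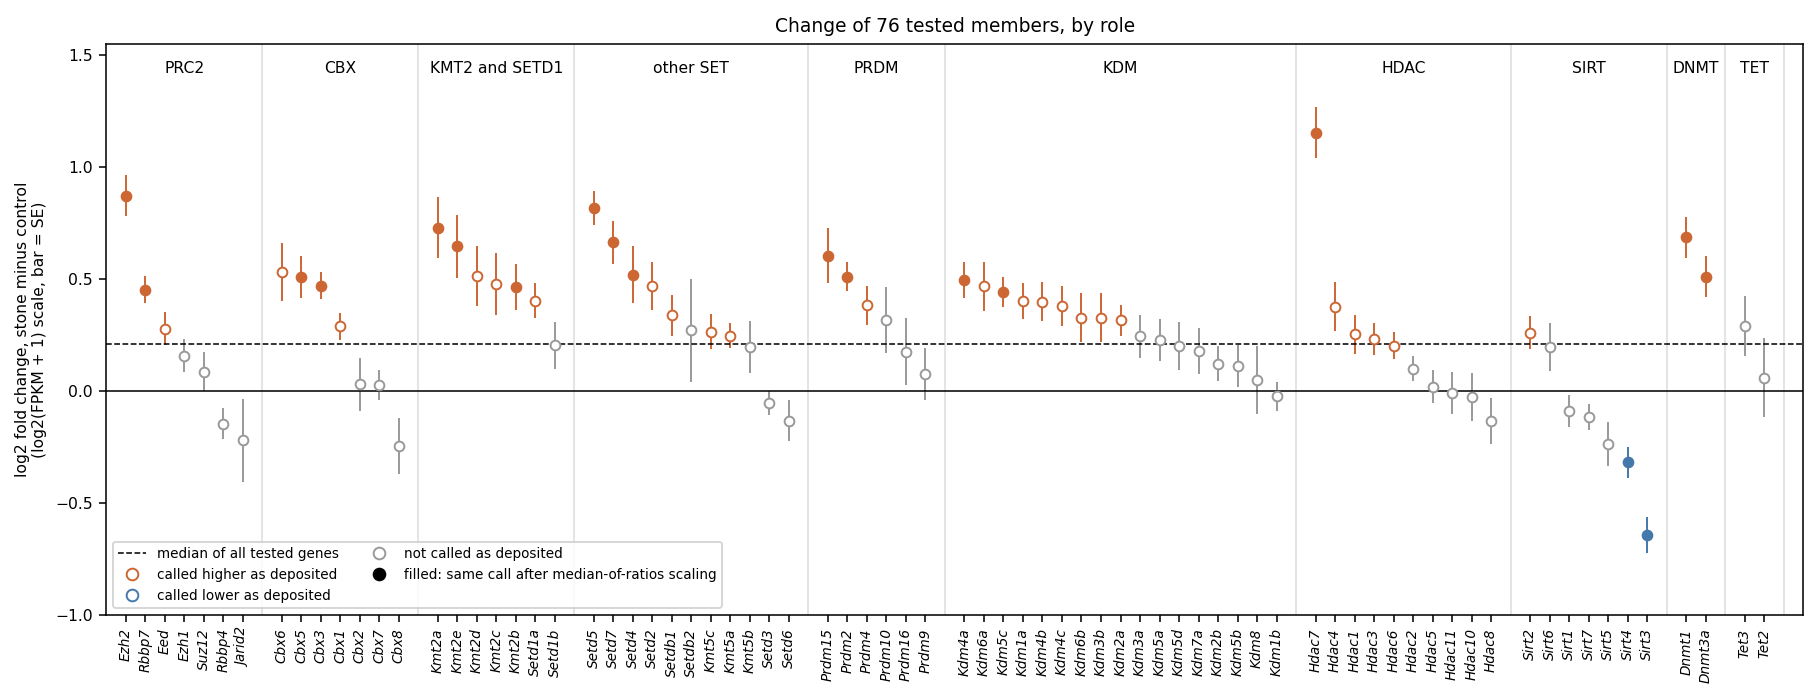
Log2 fold change of 76 of the tested genes (stone minus control, log2(FPKM + 1) scale, bars are SE), grouped by role. Colours give the call as deposited and filled points kept it after median-of-ratios scaling. Hdac7 stands highest at 1.15 and Sirt3 lowest at -0.64, and the dashed line is the median of all tested genes at 0.21.

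Among the PRC2 subunits Ezh2 rose most. Sample values here and below are in order of sample number, controls first. Control kidneys held 2.28, 2.29 and 2.75 FPKM of Ezh2, and stone kidneys 5.39, 5.03 and 5.43 FPKM. All stone values exceeded all control values, and the mean was 2.17-fold higher (log2 fold change 0.87, SE 0.092, limma, adjusted p = 0.000339). The change was 0.69 under median-of-ratios scaling and 1.09 under equal FPKM sums, and it stayed between 0.84 and 0.94 when any 1 sample was left out. Even so, Ezh2 remained the least abundant of the 7 PRC2 genes in each of the 6 samples. Its paralog Ezh1 stood at 17.8, 16.2 and 18.69 FPKM in controls and 18.91, 19.59 and 20.57 FPKM in stone kidneys. The Ezh1 groups did not overlap, but the change of 0.16 did not pass (limma, adjusted p = 0.0999), and it was -0.06 after median-of-ratios scaling. Of the summed FPKM of both paralogs, Ezh2 made 11.4 to 12.8% in controls and 20.4 to 22.2% in stone kidneys. A share of this kind does not move with the scaling of a sample.

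Promoter windows from RefSeq (GRCm38.p6, 250 bases before to 50 after a start site) are shown for the paralogs Ezh2 and Ezh1, whose transcripts differed in their change, and for Dnmt1. Dnmt1 was also called higher as deposited and after median-of-ratios scaling, and it holds a match, which most such genes with a window do not. Capitals mark a match to TTGGCGC, a form of the site bound by E2F factors, which act at genes of the cell cycle. TTGGCGC and TTCCCGC were searched on both strands. The Ezh2 window lies at chr6:47594981-47595280, the Ezh1 window at chr11:101226414-101226713 and the Dnmt1 window at chr9:20952574-20952873, all on the minus strand and printed 5′ to 3′ in the direction of the gene.
Ezh2: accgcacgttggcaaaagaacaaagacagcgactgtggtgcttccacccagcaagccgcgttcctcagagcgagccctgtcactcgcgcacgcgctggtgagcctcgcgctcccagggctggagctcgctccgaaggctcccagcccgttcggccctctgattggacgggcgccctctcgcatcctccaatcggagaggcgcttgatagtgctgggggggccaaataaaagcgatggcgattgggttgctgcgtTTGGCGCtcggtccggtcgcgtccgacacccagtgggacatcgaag
Ezh1: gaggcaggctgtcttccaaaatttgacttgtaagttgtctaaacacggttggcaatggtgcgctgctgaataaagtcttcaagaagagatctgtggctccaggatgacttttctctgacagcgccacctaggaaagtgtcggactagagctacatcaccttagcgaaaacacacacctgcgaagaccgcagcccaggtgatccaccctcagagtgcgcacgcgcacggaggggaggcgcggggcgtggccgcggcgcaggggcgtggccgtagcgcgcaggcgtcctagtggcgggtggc
Dnmt1: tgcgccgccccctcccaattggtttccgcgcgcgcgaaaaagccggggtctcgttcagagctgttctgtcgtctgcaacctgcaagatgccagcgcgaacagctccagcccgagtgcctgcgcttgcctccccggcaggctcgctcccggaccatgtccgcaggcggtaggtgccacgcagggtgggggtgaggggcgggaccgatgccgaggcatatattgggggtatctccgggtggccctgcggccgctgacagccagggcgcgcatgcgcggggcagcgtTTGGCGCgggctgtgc

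The Ezh2 match starts at base 255 of its window and the Dnmt1 match at base 285, both just after the start site of the printed window. For both genes this is an internal start site, downstream of the outermost annotated start, chr6:47595270 for Ezh2 and chr9:20959888 for Dnmt1. The Ezh1 window is set on its outermost annotated start, chr11:101226463, so the printed windows hold unlike kinds of start site. The printed Dnmt1 window is the only Dnmt1 window with a match. The Ezh1 window holds neither motif. Of the 71 genes with a window, 13 held a match in at least 1 of their windows, or 18.3%. Counted in the same way, 13.6% of the 9871 tested genes with a window did. The 71 include genes that were not tested, among them Prdm11, which held a match. Counted by single window, an unlike measure because many genes have several windows, 6.8% of all 32851 windows held a match. Among the genes higher both as deposited and after median-of-ratios scaling, 14 had a window and 3 of these held a match, namely Ezh2, Dnmt1 and Cbx3. Hdac7, Setd5, Kmt2a and Setd7 were among those without a match in any window. Dnmt1 and Cbx3 also have windows without a match. Sirt4, called lower under those same scalings, held a match to TTCCCGC, and the other 9 matching genes had no such call. A match of 7 letters describes the sequence and is not evidence of binding.

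The other PRC2 subunits moved less than Ezh2. Of the 7, 3 rose as deposited, against 43.5% of all tested genes. After median-of-ratios scaling 2 rose and 1 fell, against 23.9% and 24.9%, and with equal FPKM sums 5 rose, against 68.5%. Rbbp7, a histone chaperone shared with deacetylase complexes, went from 56.99, 57.74 and 62.28 FPKM to 80.02, 83.4 and 79.69 FPKM, and it kept its call under all 4 scalings (log2 fold change 0.45, limma, adjusted p = 0.000817). Eed, which binds the methyl mark and activates the complex, went from 7.72, 7.23 and 7.88 FPKM to 9.02, 9.34 and 9.98 FPKM. The Eed groups were separate, but the change of 0.28 was called only as deposited and with equal FPKM sums and was lost without stone sample 3 (0.24, limma, adjusted p = 0.0527). Suz12, the scaffold subunit, stood at 11.9, 11.57 and 13.87 FPKM against 13.58, 13.79 and 12.38 FPKM, and these ranges overlapped.

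Rbbp4, the paralog of Rbbp7, stood at 32.96, 34.95 and 31.71 FPKM in controls and 28.03, 31.49 and 30.26 FPKM in stone kidneys. All its stone values were below all its control values, but it was not called as deposited (log2 fold change -0.15, limma, adjusted p = 0.105) and was called lower after median-of-ratios scaling at -0.37. With equal FPKM sums the sign turned, at 0.13. Rbbp4 shares 8.94% of its exon bases with Sync on the opposite strand and Rbbp7 5.98% with Txlng, and whether the counting used the strand is not known here. Jarid2, an accessory subunit that recruits the complex, spread over 16.23, 12.27 and 8.83 FPKM in controls and stood at 10.07, 10.69 and 9.98 FPKM in stone kidneys. Its control values alone spanned more than the difference of the group means, and a lower call appeared only without control sample 3, at -0.43 (limma, adjusted p = 0.026).

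Within single samples, Ezh2 gained on its partners and on the opposing demethylases. The ratio of Ezh2 to Ezh1 was 0.128, 0.141 and 0.147 in controls and 0.285, 0.257 and 0.264 in stone kidneys, a 1.94-fold difference. To Eed the ratio was 1.75-fold higher in stone kidneys, to Suz12 2.04-fold, to Kdm6a 1.47-fold and to Kdm6b 1.68-fold. For all 5 ratios each stone value lay above each control value. An exact permutation test over the 6 samples gave p = 0.1 for each of the 5 ratios, two-sided and also after adjustment over the 5, which is the smallest p that 3 against 3 samples can give. On the log2 scale the differences and their SE were 0.95 and 0.075 for Ezh1, 0.81 and 0.085 for Eed, 1.03 and 0.079 for Suz12, 0.56 and 0.12 for Kdm6a, and 0.75 and 0.096 for Kdm6b. The ratio to Kdm6a thus had the smallest difference and the widest error.

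**Figure D3:**
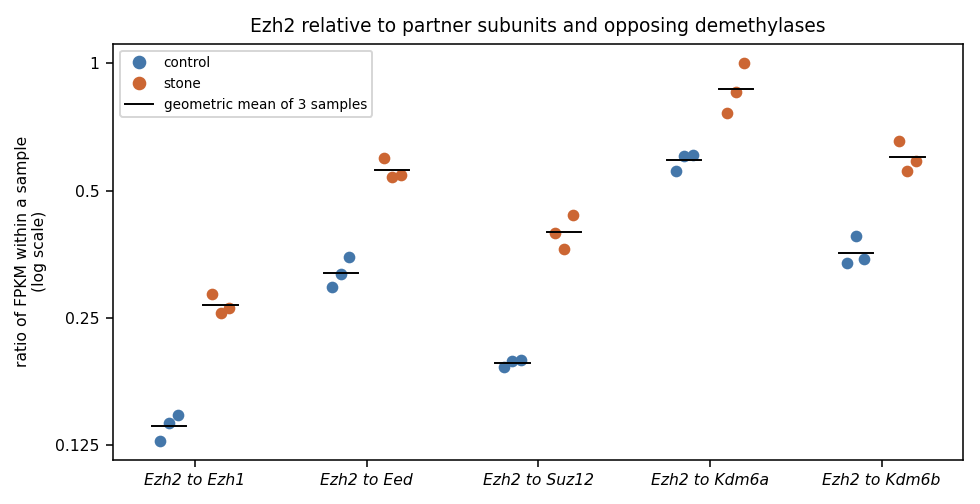
Ratio of Ezh2 FPKM to the FPKM of each of 5 genes within each sample, on a log scale, with control samples in blue, stone samples in orange and the geometric mean of each group as a line. In each of the 5 pairs the stone points lie above the control points, and the ratio to Kdm6a reaches 1.00 in stone sample 3.

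Chromobox proteins read methyl marks of heterochromatin or of Polycomb. As deposited, the higher calls were the heterochromatin readers Cbx1, Cbx3 and Cbx5 and the Polycomb reader Cbx6, which had the largest change of the list. Of 8 genes 4 were called higher as deposited, against 43.5% of all tested genes. After median-of-ratios scaling 2 were higher and 2 lower, against 23.9% and 24.9%, and with equal FPKM sums 5 were higher, against 68.5%. Cbx3, which encodes the heterochromatin protein HP1 gamma, stood at 34.84, 34.6 and 33.86 FPKM in controls and 45.39, 49.13 and 49.9 FPKM in stone kidneys, without overlap (log2 fold change 0.47, limma, adjusted p = 0.000699). Cbx5, which encodes HP1 alpha, went from 10.81, 9.61 and 10.57 FPKM to 14.93, 13.59 and 16.94 FPKM (0.51, limma, adjusted p = 0.00333). Both were called under all 4 scalings. Cbx1, which encodes HP1 beta, went from 22.65 ± 0.923 to 27.9 ± 0.997 FPKM (SD, n = 3), a change of 0.29 that fell to 0.06 after median-of-ratios scaling.

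Among the Polycomb readers, Cbx6 stood at 14.24, 12.47 and 14.95 FPKM in controls and 17.69, 19.47 and 24.88 FPKM in stone kidneys, with stone sample 3 the highest. Its change of 0.53 passed as deposited (limma, adjusted p = 0.0108) but not after median-of-ratios scaling (0.31, adjusted p = 0.0533). Cbx6 shares 5.31% of its exon bases with Npcd on the same strand. Cbx7 and Cbx8 were not called as deposited, at 0.03 and -0.25, and were called lower after median-of-ratios scaling, at -0.19 and -0.43. Cbx8 measured 4.18, 3.53 and 3.82 FPKM against 2.5, 3.68 and 3.14 FPKM, so its groups overlapped. Cbx7 was called higher with equal FPKM sums, at 0.29, and its direction depends on the scaling. Cbx2 was called under none of the 4 scalings, with a change of 0.03 as deposited.

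The KMT2 and SETD1 methyltransferases, large enzymes that methylate histone H3 at enhancers and active promoters, were mostly called higher in the deposited values, but not under each scaling. Of 7 genes 6 rose as deposited and 7 with equal FPKM sums, while 3 did under median-of-ratios scaling and 2 with quantile normalization. The shares of all tested genes that rose were 43.5, 68.5, 23.9 and 22.3% in that order. Their median log2 fold change was 0.48, beside 0.21 for all tested genes. Kmt2a, the MLL gene, stood at 4.07, 2.74 and 4.09 FPKM in controls and 6.4, 6.33 and 7.11 FPKM in stone kidneys (0.73, limma, adjusted p = 0.00347). Kmt2e, a member of the group without known methyltransferase activity, went from 12.17, 8.83 and 13.61 FPKM to 18.81, 17.76 and 18.5 FPKM (0.65, limma, adjusted p = 0.00677). Kmt2b went from 6.68, 5.56 and 6.15 FPKM to 7.88, 8.74 and 9.9 FPKM (0.46, limma, adjusted p = 0.00723). All 3 kept their call after median-of-ratios scaling, at 0.54, 0.43 and 0.26, and Kmt2a and Kmt2e also with quantile normalization.

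Kmt2d and Kmt2c, which act mainly at enhancers, rose by 0.51 and 0.48 as deposited and stood at 0.32 and 0.29, no longer called, after median-of-ratios scaling. The Kmt2c call was lost without stone sample 1 or 3 (0.46 each, limma, adjusted p = 0.0513 and 0.0576). Setd1a rose from 7.91 ± 0.612 to 10.8 ± 0.426 FPKM (SD, n = 3), a change of 0.40, and was at 0.19 after median-of-ratios scaling. Setd1b had the smallest change of the group, from 3.93, 3.04 and 3.85 FPKM to 4.21, 4.06 and 4.59 FPKM, a change short of the threshold (0.20, limma, adjusted p = 0.138) and of the other sign with quantile normalization, at -0.17. In all 7 of these genes control sample 2 had the lowest value of the 3 controls, which was so for 44.2% of all tested genes. Without control sample 2 the change of Kmt2a was 0.58 and that of Kmt2e 0.48, and both were still called. The part of that library in the result was not tested further. Kmt2e shares 9.31% of its exon bases with Srpk2 on the opposite strand.

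Of the other 11 genes of SET-domain methyltransferases, 7 rose as deposited, against 43.5% of all tested genes. After median-of-ratios scaling 3 were higher and 2 lower, against 23.9% and 24.9%, and with equal FPKM sums 9 were higher, against 68.5%. Setd5, whose product associates with the NCoR and HDAC3 corepressor complex, stood at 6.95, 6.45 and 7.64 FPKM in controls and 12.87, 13.05 and 13.33 FPKM in stone kidneys. The mean was 1.87-fold higher and the stone values lay close together (log2 fold change 0.82, SE 0.076, limma, adjusted p = 0.000204). Setd7, which adds a methyl group to histone H3 and to many other proteins, went from 3.25, 2.88 and 3.42 FPKM to 5.2, 5.51 and 6.17 FPKM (0.66, limma, adjusted p = 0.00121). Setd5 and Setd7 were called under all 4 scalings. Setd4, a little-studied SET protein, went from 0.77, 0.51 and 0.69 FPKM to 1.25, 1.3 and 1.57 FPKM. It reached the level for testing, with a mean of 1.015 FPKM over all samples, only through the stone group.

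Setd2, which methylates histone H3 along transcribed genes, rose by 0.47, and Setdb1, which builds heterochromatin, by 0.34. Setd2 and Setdb1 stood at 0.26 and 0.13 after median-of-ratios scaling and were no longer called. Kmt5a and Kmt5c, which methylate histone H4, rose by 0.25 and 0.27 and stood at 0.02 and 0.04. The Kmt5c call was lost without any 1 of the stone samples (limma, adjusted p up to 0.0666), and the Setdb1 call without stone sample 2 or 3 (0.32 each, limma, adjusted p = 0.0578 and 0.0504). Setd3, the actin methyltransferase and the most abundant gene of this group, was steady at 67.92, 69.05 and 70.8 FPKM against 66.65, 68.43 and 64.86 FPKM. Setd3 was called lower after median-of-ratios scaling (-0.29) and higher with equal FPKM sums (0.22), so its direction is set by the scaling. Setd6, which methylates the NF-kappaB subunit RelA, stood at 14.52, 16.06 and 13.41 FPKM against 12.36, 12.88 and 14.6 FPKM, with overlap, and was called lower only after median-of-ratios scaling and quantile normalization. Kmt5b and Setdb2 did not pass as deposited, at 0.20 and 0.27, and control sample 1 held 1.46 FPKM of Setdb2 against 3.29 and 3.42 FPKM in the other controls.

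PRDM proteins combine a SET-like domain with zinc fingers, and most were low in these kidneys. Of 11 such genes, 7 were tested, and 3 rose as deposited and 4 with equal FPKM sums, while 2 did under median-of-ratios scaling. In that order 43.5, 68.5 and 23.9% of all tested genes rose. Prdm2, which encodes a methyltransferase of heterochromatin, stood at 10.96, 10.27 and 10.65 FPKM in controls and 15.02, 15.4 and 16.29 FPKM in stone kidneys (0.51, limma, adjusted p = 0.000688), and was called under all 4 scalings. Prdm15, a transcription factor gene, went from 1.23, 0.83 and 1.22 FPKM to 2.12, 2.03 and 2.37 FPKM (0.60, limma, adjusted p = 0.00536). Quantile normalization lost the Prdm15 call, at 0.22. Prdm4 rose by 0.38 and stood at 0.17 after median-of-ratios scaling, no longer called. Prdm9, Prdm10 and Prdm16 were not called as deposited, at 0.07, 0.32 and 0.18, though Prdm10 was without control sample 1 (0.45, limma, adjusted p = 0.0372).

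Among lysine demethylases the number of higher calls followed the scaling. Of 17 tested genes 9 were called higher as deposited and 16 with equal FPKM sums, where 43.5% and 68.5% of all tested genes were. After median-of-ratios scaling 2 were higher, Kdm4a and Kdm5c, and 1 lower, Kdm1b, where 23.9% of all tested genes were higher and 24.9% lower. Quantile normalization gave 1 higher and 3 lower. Kdm4a, which removes methyl groups from marks of heterochromatin and of gene bodies, stood at 11.11, 9.63 and 11.04 FPKM in controls and 15.23, 14.5 and 16.26 FPKM in stone kidneys (0.50, limma, adjusted p = 0.00196). Kdm5c, an X-linked demethylase of the active promoter mark, went from 9.13, 9.04 and 9.99 FPKM to 13.59, 12.84 and 12.89 FPKM (0.44, limma, adjusted p = 0.00162). Its Y-linked counterpart Kdm5d overlapped between groups, at 4.15 ± 0.589 and 4.90 ± 0.394 FPKM (SD, n = 3). The Kdm5c call was lost with quantile normalization, at 0.17, and Kdm4a kept it.

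Both demethylases of the Polycomb mark were called higher as deposited and with equal FPKM sums, and neither was after median-of-ratios scaling. Kdm6a stood at 4.09, 3.79 and 4.52 FPKM in controls and 7.06, 5.89 and 5.41 FPKM in stone kidneys, with stone sample 1 the highest (0.47, limma, adjusted p = 0.00933). Kdm6b, an inducible gene of inflammatory activation, went from 6.75, 5.86 and 7.99 FPKM to 8.21, 9.02 and 9.24 FPKM, and its nearest values, 7.99 and 8.21 FPKM, almost touch. The Kdm6b change was 0.33 (limma, adjusted p = 0.0367), and the call was lost on leaving out control 1, control 2, stone 2 or stone 3 (limma, adjusted p up to 0.101). With equal FPKM sums Kdm6a and Kdm6b stood at 0.70 and 0.57 (limma, adjusted p = 0.00137 and 0.00432), and after median-of-ratios scaling at 0.27 and 0.12.

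The LSD1 gene Kdm1a rose by 0.40, Kdm4b by 0.40, Kdm4c by 0.38, Kdm3b by 0.33 and Kdm2a by 0.31, and none of these 5 was called after median-of-ratios scaling. The most abundant of the family, Kdm2a, stood at 13.88, 12.32 and 14.1 FPKM in controls and 16.54, 17.17 and 17.07 FPKM in stone kidneys. The Kdm3b call was lost on leaving out the same samples singly (limma, adjusted p up to 0.109). Kdm3a, Kdm5a and Kdm5d did not pass with all samples, at 0.24, 0.23 and 0.20, and were called without control sample 3, at 0.31, 0.29 and 0.29 (limma, adjusted p = 0.0407, 0.0437 and 0.0385). Kdm1b, the paralog of Kdm1a, was level at 12.1, 12.23 and 12.56 FPKM against 12.73, 11.75 and 11.77 FPKM. It was called lower after median-of-ratios scaling (-0.24) and higher with equal FPKM sums (0.23). Kdm1b shares 9.19% of its exon bases with Dek on the opposite strand.

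Among zinc-dependent histone deacetylases, Hdac7 stood apart from its relatives in size of change. Hdac7 encodes a class IIa deacetylase that shuttles between nucleus and cytoplasm and is known from endothelium and developing T cells. Control kidneys held 6.84, 5.93 and 7.28 FPKM and stone kidneys 14.55, 15.11 and 18.76 FPKM, the last in stone sample 3. The Hdac7 mean was 2.41-fold higher (log2 fold change 1.15, SE 0.114, limma, adjusted p = 0.000268), and the change was 0.94 under median-of-ratios scaling and 1.41 under equal FPKM sums. Hdac7 alone among the 78 reached a change of 1 on the log2(FPKM + 1) scale, as did 7.52% of all tested genes. That scale understates changes of low genes, and by plain means Ezh2 was 2.17-fold and Setd4 2.09-fold higher. Setd4 was tested only through its stone values. The share of Hdac7 in the summed deacetylase FPKM went from 3.51 to 4.28% in controls to 7.47 to 9.24% in stone kidneys. Endothelial markers rose beside it. Of 10, 6 were called higher as deposited and also 6 under median-of-ratios, and 9 under equal FPKM sums, with Flt1, the VEGF receptor gene, from 4.92 ± 1.59 to 11.6 ± 1.31 FPKM (SD, n = 3), and their summed level was 111 to 179 FPKM in controls and 191 to 283 FPKM in stone kidneys. None of these markers was at 0 in every sample, and their part in the Hdac7 result was not tested.

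Of the 10 tested deacetylase genes 5 rose as deposited and 8 with equal FPKM sums, against 43.5% and 68.5% of all tested genes. After median-of-ratios scaling Hdac7 alone was higher and Hdac8 alone lower, against 23.9% and 24.9% of all tested genes. The other 4 higher calls, Hdac4, Hdac1, Hdac3 and Hdac6, were small, at 0.38, 0.25, 0.23 and 0.20. Hdac1, the most abundant of the family with Hdac2, stood at 32.6, 32.66 and 34.55 FPKM in controls and 35.02, 43.52 and 41.46 FPKM in stone kidneys, and its groups nearly met. Its call was lost without any 1 of the 3 controls or stone sample 2 or 3 (limma, adjusted p up to 0.134). The calls of Hdac3, Hdac4 and Hdac6 were each lost without at least 3 different samples taken singly (limma, adjusted p up to 0.0881, 0.0682 and 0.101). After median-of-ratios scaling Hdac1, Hdac3 and Hdac6 stood at 0.03, 0.01 and -0.02. Hdac2, Hdac5, Hdac10 and Hdac11 were not called as deposited, with changes from -0.03 to 0.10. Hdac8 overlapped between groups, at 6.65, 6.92 and 7.23 FPKM against 5.27, 6.89 and 6.6 FPKM, and was called lower at -0.34 after median-of-ratios scaling and also with quantile normalization.

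Sirtuins are NAD-dependent deacylases, and as deposited they held both lower calls of the 78 genes, the mitochondrial Sirt3 and Sirt4. Of 7 genes 1 rose and 2 fell as deposited, against 43.5% and 13.9% of all tested genes. After median-of-ratios scaling 5 fell, the nuclear Sirt1 and Sirt7 among them, against 24.9% of all tested genes. With equal FPKM sums 3 rose and 1 fell, against 68.5% and 6.47%. Sirt3, the main deacetylase of mitochondria, stood at 55.14, 61.76 and 54.31 FPKM in controls and 38.48, 37.08 and 33.1 FPKM in stone kidneys. The lowest control exceeded the highest stone value by a wide margin (log2 fold change -0.64, SE 0.081, limma, adjusted p = 0.000698). Sirt3 was the 1 gene of the 78 called lower under all 4 scalings, with -0.87 under median-of-ratios scaling and -0.37 under equal FPKM sums. Sirt3 shares 12.7% of its exon bases with Psmd13 and Ric8a on the opposite strand. Sirt4, another mitochondrial sirtuin, went from 10.77, 10.07 and 9.69 FPKM to 8.15, 7.78 and 7.92 FPKM (-0.32, limma, adjusted p = 0.0065), and lost its call only with equal FPKM sums, at -0.07 (limma, adjusted p = 0.406).

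Sirt5, the third mitochondrial sirtuin and a desuccinylase, stood at 11.32, 10.26 and 9.3 FPKM in controls and 7.64, 8.81 and 9.28 FPKM in stone kidneys. The Sirt5 groups were separate by a hair, 9.3 against 9.28 FPKM, and the change of -0.24 did not pass (limma, adjusted p = 0.0737), but it did without control sample 3 (-0.30, limma, adjusted p = 0.0436). Sirt2, the cytoplasmic tubulin deacetylase, went the other way, from 54.65, 51.18 and 49.96 FPKM to 68.06, 59.7 and 59.45 FPKM (0.26, limma, adjusted p = 0.02). After median-of-ratios scaling Sirt2 stood at 0.03, and its call was lost without control sample 2 or 3 (limma, adjusted p = 0.0551 and 0.0531). As shares of summed sirtuin FPKM, Sirt3 went from 32.3 to 35.7% in controls to 22.6 to 24.6% in stone kidneys, and Sirt2 from 29.6 to 32.0% to 39.7 to 42.8%.

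**Figure D4:**
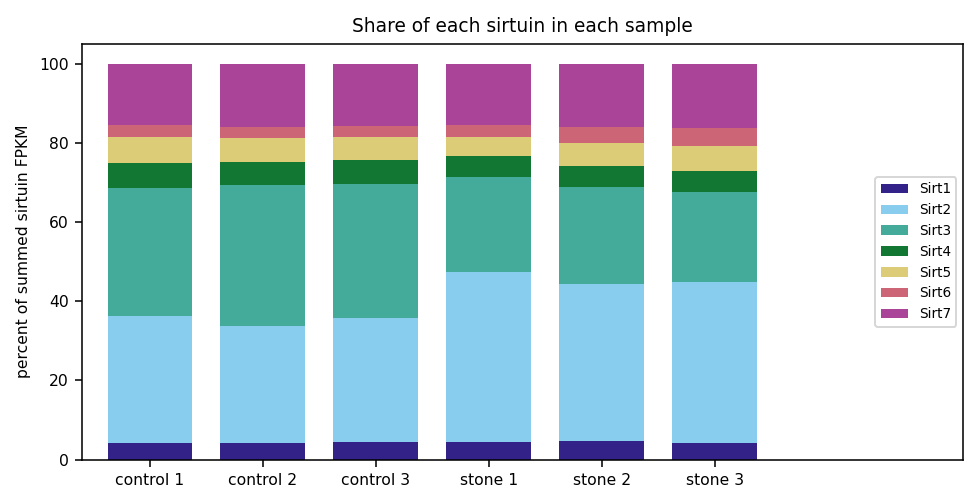
Percent of the summed FPKM of the 7 sirtuins in each of the 6 samples, stacked by gene. In the 3 control samples Sirt3 holds 32.3 to 35.7%, and in the 3 stone samples 22.6 to 24.6%, while the band of Sirt2 widens.

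The nuclear sirtuins Sirt1, Sirt6 and Sirt7 did not pass as deposited. Sirt1 stood at 7.36, 7.27 and 7.23 FPKM against 7.08, 7 and 6.3 FPKM, and Sirt7 at 26.4 ± 1.22 against 24.2 ± 0.342 FPKM (SD, n = 3). Their changes were -0.09 and -0.12. After median-of-ratios scaling both were called lower, at -0.29 and -0.34, and with equal FPKM sums Sirt7 was called higher, at 0.15. Sirt6 overlapped between groups, at 0.20, and was called higher without stone sample 1 (0.29, limma, adjusted p = 0.0419). Markers of the proximal tubule, a segment rich in mitochondria, moved beside Sirt3 and Sirt4. Of 12 such markers 7 were lower and 1 higher as deposited, 8 and 1 under median-of-ratios, and 6 and 3 with equal FPKM sums. Slc34a1, the phosphate transporter gene, went from 2617 to 1661 FPKM on average. Slc5a12, the marker called higher as deposited, went the other way, from 60.1 to 119 FPKM on average. The summed level of the list, mostly Kap, was 152192 to 183438 FPKM in controls and 12682 to 18773 FPKM in stone kidneys. None of the 12 was at 0 in every sample, and their part in the sirtuin result was not tested. In whole-kidney RNA, fewer cells of a type and less RNA per cell cannot be told apart.

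Both tested DNA methyltransferase genes rose, under each of the 3 scalings counted here. Dnmt1, the maintenance enzyme that copies DNA methylation at replication, stood at 4.18, 4.01 and 4.35 FPKM in controls and 6.47, 7.78 and 7.8 FPKM in stone kidneys (log2 fold change 0.69, SE 0.091, limma, adjusted p = 0.000879). Stone sample 1 was the lowest of the 3 but still well above every control. Dnmt3a, a de novo enzyme, went from 5.15, 4.44 and 5.55 FPKM to 7.35, 7.51 and 7.91 FPKM (0.51, limma, adjusted p = 0.00293). Dnmt3a lost its call with quantile normalization, at 0.19 (limma, adjusted p = 0.0675), and Dnmt1 kept it. The other de novo enzyme, Dnmt3b, fell below the level for testing, with 0.58, 0.52 and 0.3 FPKM against 0.68, 0.86 and 0.84 FPKM, and its groups did not overlap. Dnmt3l, the cofactor without catalysis, did not exceed 0.24 FPKM in any sample.

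TET dioxygenases, which act against DNA methylation, did not pass as deposited. Tet2, the most abundant, stood at 10.31, 6.37 and 6.67 FPKM in controls and 7.27, 9.27 and 7.52 FPKM in stone kidneys, with the highest value in control sample 1 (0.06, limma, adjusted p = 0.789). Tet3 went from 3.03, 2.23 and 3.28 FPKM to 3.26, 3.64 and 4.13 FPKM, which overlap (0.29, limma, adjusted p = 0.102), and was called higher only with equal FPKM sums, at 0.50. By unadjusted p in limma, 0 TET genes were below 0.05. Tet1 was at 0.15 to 0.23 FPKM in every sample and was not tested. The other genes below the level for testing were Prdm1, Prdm6, Prdm8, Prdm11, Kdm4d and Hdac9. Prdm8 was listed at 0 in each sample and Prdm6 did not exceed 0.06 FPKM. Hdac9, from 0.18 to 0.22 FPKM in controls and 0.23 to 0.37 FPKM in stone kidneys, and Prdm1, from 0.15 to 0.42 FPKM over all samples, were also low.

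**Figure D5:**
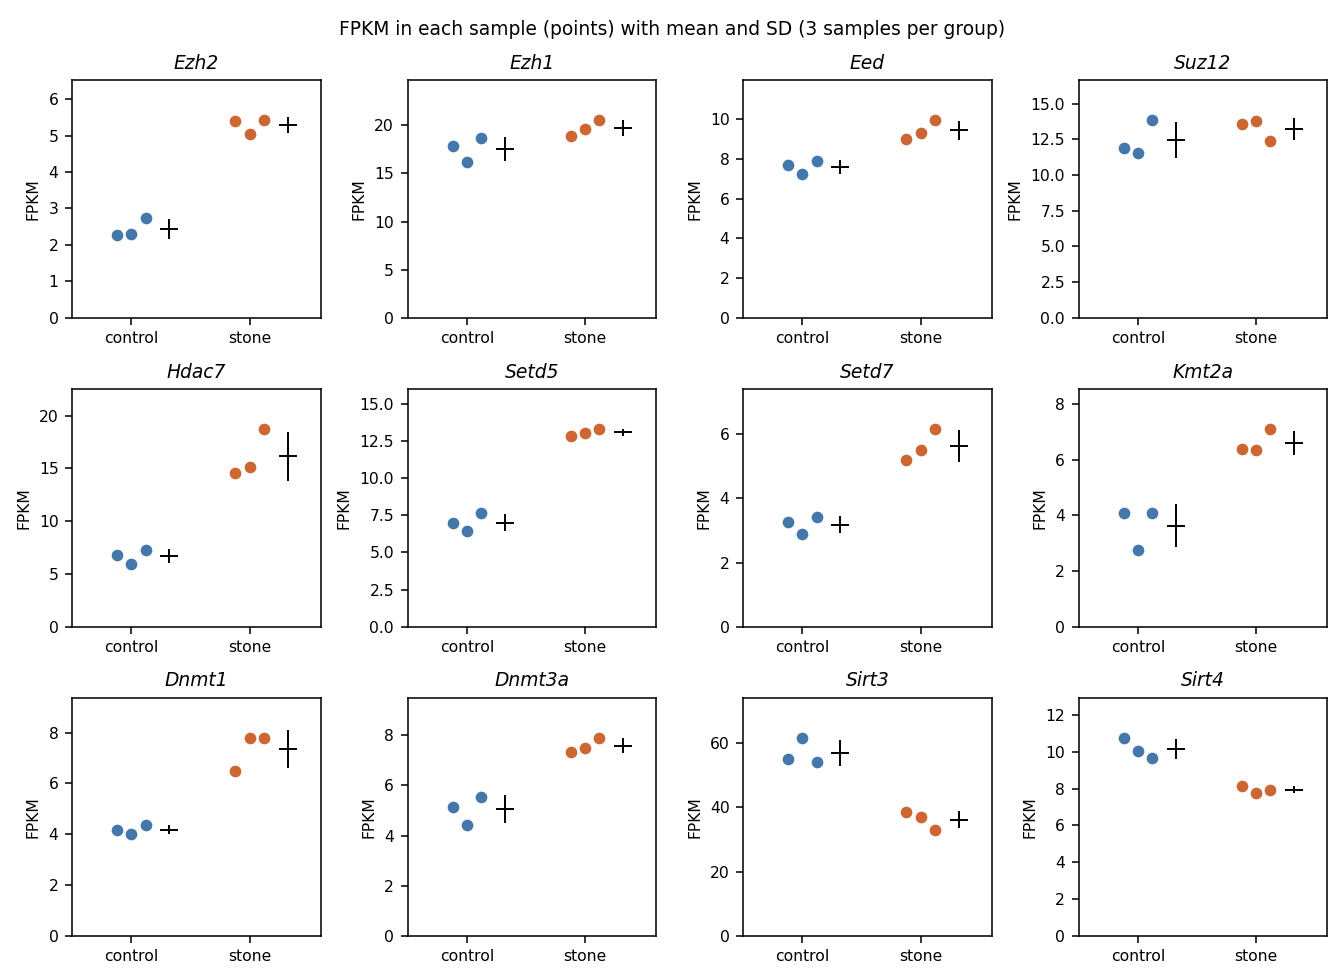
FPKM of 12 of the genes in each control (blue) and stone (orange) sample, with the mean and SD of 3 samples as a black mark and every axis starting at 0. Points of the 2 groups are apart for Ezh2, Hdac7, Setd5, Setd7, Kmt2a, Dnmt1, Dnmt3a, Sirt3 and Sirt4, close for Ezh1 and Eed, and mixed for Suz12.

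Other genes of the same pathways, from lists that hold none of the 87, moved as follows. For comparison, 43.5% of all tested genes rose as deposited, 23.9% under median-of-ratios and 68.5% under equal FPKM sums. The shares that fell were 13.9, 24.9 and 6.47%. Of 20 tested further Polycomb genes 11 rose. Median-of-ratios scaling gave 4 higher and 3 lower, and equal FPKM sums 16 higher. Phc2, of Polycomb repressive complex 1, went from 18.4 ± 1.04 to 28.8 ± 3.48 FPKM (SD, n = 3). Of 26 other histone methyltransferases and demethylases 20 rose as deposited, 13 under median-of-ratios and 24 under equal FPKM sums. The lysine methyltransferase gene Smyd2 led them, from 11.7 ± 0.26 to 21.5 ± 0.718 FPKM (SD, n = 3; log2 fold change 0.83, limma, adjusted p = 7.63e-05). The median of that list was 0.46, beside 0.26 for the 78 genes. Histone acetyltransferases rose in 9 of 11 and fell in 1, Kat2b, with median-of-ratios scaling rose in 4 and fell in 1, and with equal FPKM sums rose in 10. Kat8 rose by 0.53.

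Deacetylase corepressor subunits moved both ways, with 9 of 19 higher and 4 lower as deposited, 3 and 4 after median-of-ratios scaling, and 15 and 2 with equal FPKM sums. Chd4, the remodeller of the NuRD complex, went from 29.1 ± 2.06 to 47.1 ± 1.17 FPKM, and Sap30, of the Sin3 complex, fell from 46.1 ± 5.03 to 18.8 ± 0.337 FPKM (SD, n = 3; limma, adjusted p = 6.12e-05), to 0.407 of its control mean. Of 12 readers and partners of DNA methylation 9 were higher and 1 lower, 5 and 2 under median-of-ratios scaling, and 10 and 0 under equal FPKM sums. Uhrf1, which brings DNMT1 to replicating DNA, went from 0.567 ± 0.140 to 5.59 ± 0.652 FPKM (SD, n = 3), and it reached the level for testing only through the stone group. Mbd4, a DNA glycosylase gene, fell by 0.45 on the log2 scale.

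Summed levels of markers of several cell populations were higher in stone kidneys, beside Ezh2, Dnmt1 and the other higher calls. For all 18 markers of dividing cells the sum was 60.4 to 68.7 FPKM in controls and 149 to 186 FPKM in stone kidneys, and Mki67 went from 0.447 ± 0.116 to 3.92 ± 0.283 FPKM (SD, n = 3). Of these markers 16 were tested, 7 of them only through their stone values, and 16 were called higher as deposited, 15 under median-of-ratios and 16 under equal FPKM sums. The 14 macrophage and monocyte markers summed to 81.9 to 88.5 FPKM in controls and 251 to 602 FPKM in stone kidneys, with 13 called higher under each of the 3 scalings and 6 of the 14 tested only through their stone values. The 12 fibroblast and myofibroblast markers summed to 75.1 to 92.9 and 224 to 372 FPKM, with 11, 11 and 12 called higher under the 3 scalings in that order and 2 tested only through their stone values. Such a gene had to differ in order to be tested, so these counts are given as a description. None of these markers was at 0 in every sample. Podocyte markers were called higher in 5 of 7 as deposited, 4 under median-of-ratios and 6 under equal FPKM sums, with sums of 48.4 to 68.4 FPKM in controls and 84.1 to 102 FPKM in stone kidneys. Of 13 markers of the thick limb and distal nephron, 6 were lower and 1 higher as deposited, 7 lower after median-of-ratios scaling, and 2 lower and 3 higher with equal FPKM sums. Of 16 markers of T, B and NK cells, 15 were below the level for testing. The summed level of the 16 was low and went the other way, at 6.35 to 9.68 FPKM in controls and 4.63 to 5.8 FPKM in stone kidneys. The part of these populations in the levels of the 87 genes was not tested.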

How the data were processed

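RNA-seq was available for 3 control and 3 stone kidneys. Per the labels' protocols, RNA was extracted with TRIzol and libraries carried dUTP in the second strand. Reads were aligned with HISAT2 2.0.4 against GRCm38.p6 (both named in the submitters' processing notes). The quantification program was not given in the sources used here, nor was its annotation. All deposited values are FPKM made by the authors, with 1 column for each sample and 0 columns of other samples. FPKM is not a count, so no count model was used. Absolute depth is unknown and no counting intervals are given. In 53 genes whose low values were taken to stand for 1 fragment, that value differed from the gene's median by -0.04 to 0.05 log2 units on average in a sample, above 0 in each control sample and below 0 in each stone sample.

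Genes averaging 1 FPKM or more across the 6 samples, 12319 in all, were tested on log2(FPKM + 1) with limma 3.58.1 in R 4.3.3 (lmFit, eBayes with a trend), two-sided. A fold change on this scale understates changes of low genes. P-values were adjusted by Benjamini-Hochberg over all tested genes, with a threshold of 0.05. Ratios of Ezh2 to 5 genes were tested by an exact permutation test. The method was tested on simulated data. Median-of-ratios factors came from tested genes above 0 in every sample. Promoters came from RefSeq and shared exon bases from GENCODE M21. Alternatives were the pseudocount, filter, scaling, replicate block and leaving out each sample. The members, role lists and marker lists were chosen with earlier results of these data known. The genes given sample by sample are the PRC2 subunits, the highest and lowest change and the highest level of each role list, and genes called alike as deposited and after median-of-ratios scaling. Others given in this way, such as Kdm6a, Kdm6b, Sirt1, Sirt5 and Prdm9, and the outside genes Umod, Slc34a1 and Apobec3, were picked after their values were seen. A few genes counted here are not reported by name. The remaining outside genes have the smallest p of their list in a direction.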

Additional observations from a re-analysis of the deposited data

How the results depend on the processing

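As deposited, 40 of the genes were called higher and 2 lower. Median-of-ratios scaling gave 17 and 12, quantile normalization 12 and 14, and equal FPKM sums 60 and 1. These follow the shift of the median tested gene (-0.20, -0.24 and 0.24). A pseudocount of 0.1 gave 40 and 2, no filter 38 and 2, and equal FPKM sums without Kap 35 and 2. Leaving out 1 sample gave 30 to 39 higher and 2 to 4 lower, with 4 lower without control sample 3. The replicate block gave 38 and 2 and lost the Hdac4 and Hdac6 calls. Across tested genes, deviations from the group mean correlated at 0.0075, -0.22 and -0.0397 between same-numbered samples. Between samples of unlike number they correlated at up to 0.161. With 3 samples per group these values cannot decide whether the numbers pair the samples. The log2 differences of the Ezh2 ratios under the replicate block were 0.95 for Ezh1, 0.81 for Eed, 1.03 for Suz12, 0.56 for Kdm6a and 0.75 for Kdm6b (exact sign-flip p = 0.25 each, the smallest possible), and all 5 kept their direction with a pseudocount of 1 and without any 1 sample.

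The sign of the log2 fold change turned for these genes among those reported. With median-of-ratios scaling it was -0.13 for Cbx2, -0.19 for Cbx7, -0.064 for Ezh1, -0.13 for Hdac2, -0.20 for Hdac5, -0.024 for Hdac6, -0.079 for Kdm2b, -0.087 for Kdm5b, -0.0088 for Kdm7a, -0.092 for Kdm8, -0.018 for Kmt5b, -0.100 for Prdm9, -0.0023 for Sirt6, -0.13 for Suz12 and -0.15 for Tet2. With quantile normalization it was -0.36 for Cbx2, -0.20 for Cbx7, -0.0086 for Eed, -0.040 for Ezh1, -0.043 for Hdac2, -0.021 for Hdac4, -0.20 for Hdac5, -0.20 for Kdm2b, -0.039 for Kdm3a, -0.13 for Kdm5a, -0.21 for Kdm5b, -0.15 for Kdm5d, -0.18 for Kdm7a, -0.35 for Kdm8, -0.067 for Kmt5b, -0.081 for Prdm10, -0.22 for Prdm16, -0.31 for Prdm9, -0.17 for Setd1b, -0.11 for Setdb2, -0.13 for Sirt6, -0.17 for Suz12, -0.24 for Tet2 and -0.090 for Tet3. With equal FPKM sums it was 0.21 for Hdac10, 0.25 for Hdac11, 0.11 for Hdac8, 0.037 for Jarid2, 0.23 for Kdm1b, 0.13 for Rbbp4, 0.22 for Setd3, 0.13 for Setd6, 0.15 for Sirt1, 0.015 for Sirt5 and 0.15 for Sirt7. With equal FPKM sums without Kap it was -0.0066 for Cbx7 and -0.015 for Hdac5. Of all these, Hdac6, Eed and Hdac4 were called as deposited. The sign also turned without 1 sample for 9 genes, whose lowest and highest values were -0.035 and 0.11 for Cbx2, -0.017 and 0.050 for Cbx7, -0.100 and 0.046 for Hdac10, -0.070 and 0.061 for Hdac11, -0.038 and 0.052 for Hdac5, -0.058 and 0.18 for Kdm8, -0.010 and 0.15 for Prdm9, -0.0030 and 0.42 for Setdb2, and -0.053 and 0.26 for Tet2.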

Other observations

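The direction of 6 genes turned with the scaling in a way that passed the test both times. Cbx7, Kdm1b, Kdm2b, Kdm5b, Setd3 and Sirt7 were called higher with equal FPKM sums and lower with median-of-ratios scaling, with quantile normalization or with both, so these data give no direction for them.

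Prdm9, known as a gene of meiotic recombination in germ cells, stood at 2.97, 2.47 and 3.32 FPKM in control kidneys and 3.31, 3.28 and 2.77 FPKM in stone kidneys. Apobec3, a DNA deaminase gene that lies next to Cbx7 and shares 1.54% of the exon bases of Cbx7 on the opposite strand, stood at 3.34, 2.62 and 3.59 FPKM in controls and 5.61, 7.06 and 19.8 FPKM in stone kidneys, the last in stone sample 3, while Cbx7 averaged 15.4 and 15.8 FPKM.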
